A study of Mus musculus with 6 samples.

Results

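Described here are 5 genes of mouse long-term haematopoietic stem cells (LT-HSCs) that lie in 2 regions of the genome and differ strongly between Hmces knockout and wild type (WT) libraries. H28 (now Ifi44l) and Ifi44 lie on chromosome 3, and 2310043J07Rik (now Upk3bl), Myl10 and 4933404O12Rik lie on chromosome 5. They were picked by name from the 23235 genes of the deposited expression table because of their large genotype differences, so their levels are given as a description with no test. The groups were LT-HSCs with an Hmces knockout (3 libraries) and wild type LT-HSCs (3 libraries), all from bone marrow of mice aged 2 months with the strain given as C57BL/6. Each library was made by the Smart-seq2 method, which amplifies full-length cDNA, from the RNA of 1500 sorted cells. The labels give 3 libraries per genotype, whereas the series' design text speaks of duplicates, so what a replicate stands for is unclear. The knockout allele, the sorting panel, the sex of the mice and whether libraries came from separate mice are not stated in the labels, so any p-value measures the spread between these libraries, which may be technical.

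HMCES shields abasic sites, positions that have lost their base, in single-stranded DNA, and the study concerned genome integrity and self-renewal of stem cells. H28 and Ifi44 are related genes that are induced by type I interferon, the cytokine that cells make in response to viruses and misplaced nucleic acids. H28 is also named for a minor histocompatibility antigen, a peptide by which the T cells of an inbred mouse strain recognise cells of another. Upk3bl is a relative of the uroplakins, membrane proteins of the urinary tract lining. Myl10 encodes a regulatory light chain of myosin first described in precursor lymphocytes, and 4933404O12Rik is annotated as a long non-coding RNA of unknown role.

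H28 and Ifi44 are next to each other on the same strand, with H28 first in the direction of transcription. The windows from 250 bases before to 50 bases after their annotated starts, and that of 2310043J07Rik, are shown because H28 and 2310043J07Rik were near 0 in all WT libraries and Ifi44 was not. The sequences are from RefSeq on GRCm38.p6, whereas the expression table was made on build mm9. The window of H28 is chr3:151762842-151763141 on the minus strand, that of Ifi44 is chr3:151749861-151750160 on the minus strand, and that of 2310043J07Rik is chr5:136057017-136057316 on the plus strand. Capitals mark matches on either strand to AANNGAAA, the core letters bound by interferon regulatory factors.
H28 (Ifi44l): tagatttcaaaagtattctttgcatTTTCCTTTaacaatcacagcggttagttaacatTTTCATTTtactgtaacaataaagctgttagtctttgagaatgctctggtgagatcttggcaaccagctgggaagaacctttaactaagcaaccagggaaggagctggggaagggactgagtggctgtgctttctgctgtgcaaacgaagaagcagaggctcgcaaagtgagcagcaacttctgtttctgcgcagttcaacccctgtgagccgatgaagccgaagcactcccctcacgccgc
Ifi44: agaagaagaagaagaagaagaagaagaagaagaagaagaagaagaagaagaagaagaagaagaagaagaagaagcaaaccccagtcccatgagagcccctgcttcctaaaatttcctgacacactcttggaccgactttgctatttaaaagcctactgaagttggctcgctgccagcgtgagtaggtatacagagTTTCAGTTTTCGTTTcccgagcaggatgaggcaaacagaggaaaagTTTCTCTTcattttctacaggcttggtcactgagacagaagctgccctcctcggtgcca
2310043J07Rik (Upk3bl): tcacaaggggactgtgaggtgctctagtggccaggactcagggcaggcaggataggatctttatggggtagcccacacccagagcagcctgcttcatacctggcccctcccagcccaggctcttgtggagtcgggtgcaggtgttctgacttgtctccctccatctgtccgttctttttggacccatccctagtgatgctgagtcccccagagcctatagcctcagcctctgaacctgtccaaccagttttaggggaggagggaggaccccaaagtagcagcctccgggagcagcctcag
The H28 window held 2 matches, which start 225 and 192 bases before the annotated start. The Ifi44 window held 3, which start 55, 48 and 9 bases before it, and the first pair of these share a base. The 2310043J07Rik window and that of 4933404O12Rik held 0. Of 3 windows listed for Myl10, 1 held a match, which lay within a match to the longer interferon-stimulated response element (ISRE), and the other members' windows held 0 matches to that element. The core letters were found in 23.9% of all 32851 promoter windows and the longer element in 3.44%. The interferon-gamma-activated site TTCNNNGAA was found in 8.3% of all windows and in 0 of the members' windows. These windows show the reference genome and not the sequence of the mice studied.

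Hmces (listed as 8430410A17Rik), on chromosome 6, was read at 8.95, 0.222 and 6.95 FPKM in knockout libraries, against 39.5, 45.4 and 41.0 FPKM in WT libraries. Its log2 difference was -3.23 (SE 0.71), which did not pass in a limma fit over all genes tested (adjusted p = 0.289), with the knockout libraries far apart from each other. FPKM divides a gene's fragments by its length and by the size of the library. Depth, estimated from the steps of low values, was between 9200000 and 14000000 fragments per library. Knockout replicate 2, with the least Hmces, also stood apart from the other libraries on the first principal component (66.98, against -33.65 to 10.14 for the others). Of 12 LT-HSC marker genes, 10 had a mean of at least 1 FPKM, while Hoxb5 and Fgd5 did not. Their summed level was between 592 and 616 FPKM in knockout and between 519 and 558 FPKM in WT libraries. All 12 markers of granulocytes and monocytes had a higher mean log2 level in knockout libraries, and Mpo and Ctsg passed the test. Groups did not overlap for 9 of them, against 15.8% of all genes tested, and overlapped for Lyz2, Csf1r and Ly86. Csf1r and Ly86 had log2 differences of 0.06 and 0.3, and Ly86 was at 0 in knockout replicate 2. The 12 summed to between 19000 and 25400 FPKM in knockout and between 6920 and 10700 FPKM in WT libraries. S100a8 had the highest mean, 9850 FPKM in knockout and 4140 FPKM in WT libraries, followed by S100a9 at 5280 and 2390 FPKM. Of 7 markers of mast cells, basophils and eosinophils, 5 had a positive log2 difference and 0 were called (limma, 3 at an unadjusted p under 0.05, all higher), with a median of 1.95. Their sum was between 133 and 1150 FPKM in knockout and between 111 and 190 FPKM in WT libraries. Knockout replicate 1 gave the high end, with Prg2 at 956 FPKM, against 22.2 and 19.3 FPKM in knockout replicates 2 and 3. The median is the difference of Epx, which rests on 49.5 FPKM in knockout replicate 1. Epx was at 0.258 FPKM in knockout replicate 3, at 0.0916 FPKM in WT replicate 2, and at 0 in knockout replicate 2 and in WT replicates 1 and 3. The part of these cells in the differences below was not tested. In RNA from sorted pools, fewer cells of a type and less RNA per cell cannot be told apart.

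H28 was abundant in every knockout library and all but missing in WT. It was read at 37.8, 65.9 and 42.2 FPKM in knockout libraries, against 0, 0 and 0.0642 FPKM in WT libraries. These values correspond to an estimated 419, 860 and 457 fragments in knockout libraries, against 0, 0 and 1 in WT libraries. The groups are far apart, and knockout replicate 2 is the highest. In the WT libraries listed at 0, replicates 1 and 2, a count of 0 allows up to 3 fragments, or 0.266 and 0.198 FPKM of H28. The difference of mean log2(FPKM + 1), knockout minus WT, was 5.56, and it was 5.33 without knockout replicate 2. The knockout mean of 48.6 ± 15.1 FPKM (SD, n = 3) lay above that of 89.6% of the genes in the table.

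Ifi44, which encodes an interferon-induced protein of the cytoplasm, was expressed in both genotypes. It was read at 58.5, 54.1 and 63.3 FPKM in knockout libraries, against 15.3, 20 and 18 FPKM in WT libraries. All knockout values exceeded all WT values, and replicates of a genotype differed little, with the highest knockout value 1.17 times the lowest and the highest WT value 1.30 times the lowest. The means were 58.6 ± 4.65 FPKM in knockout and 17.8 ± 2.32 FPKM in WT libraries (SD, n = 3 each), a 3.30-fold difference. The log2 difference was 1.67, and 1.73 without knockout replicate 2. Set against its neighbour, H28 was at 0.647, 1.22 and 0.666 of the FPKM of Ifi44 in knockout libraries, against 0, 0 and 0.00357 in WT libraries. The neighbours thus kept a different ratio in the genotypes, and knockout replicate 2 held the most H28 and the least Ifi44 of the knockout libraries.

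2310043J07Rik was listed at 0 in all WT libraries. It was read at 20.4, 11.6 and 26.7 FPKM in knockout libraries, an estimated 177, 118 and 226 fragments. A count of 0 in WT libraries allows up to 3 fragments, which would correspond to between 0.233 and 0.340 FPKM. Knockout replicate 2 held the least of this gene and replicate 3 the most. The log2 difference was 4.29, and 4.61 without knockout replicate 2. Of 5 other uroplakin genes, Upk1a, Upk2 and Upk3a were at 0 in all 6 libraries, Upk3b, the neighbour before it, reached at most 0.0486 FPKM in knockout and 0.153 FPKM in WT libraries, and Upk1b was at 2.90 FPKM in knockout replicate 2. Their sum was between 0 and 2.95 FPKM in knockout and between 0 and 0.153 FPKM in WT libraries. The urothelial markers, which include 4 of these genes and the keratin gene Krt5, were at 0 in all libraries for Upk1a, Upk2 and Upk3a, with a sum of at most 2.90 FPKM in knockout and 0.0867 FPKM in WT libraries.

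Myl10 was the member that was lower in knockout cells. It was read at 2.07, 3.53 and 1.86 FPKM in knockout libraries, against 17.3, 15.3 and 30.1 FPKM in WT libraries. The groups do not overlap, and WT replicate 3 is well above the other WT libraries. The means were 2.49 ± 0.912 FPKM in knockout and 20.9 ± 8.04 FPKM in WT libraries (SD, n = 3 each), so that 11.9% of the WT level remained. The estimated counts behind these values were 14, 28 and 12 fragments in knockout libraries, against 118, 140 and 300 in WT libraries. The log2 difference was -2.62, and -2.83 without knockout replicate 2. By library, the Myl10 level was 9.90%, 16.9% and 8.90% of the WT mean in knockout replicates 1 to 3, where Hmces stood at 21.3%, 0.529% and 16.5%. The knockout library with the least Hmces thus held the most Myl10.

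Of 11 other myosin light chain genes, 6 had a mean of at least 1 FPKM and none was called by limma, with 1 at an unadjusted p under 0.05. That gene was Myl12a, a light chain of non-muscle myosin, at 98.3, 75.9 and 89.7 FPKM in knockout libraries, against 110, 116 and 103 FPKM in WT libraries (limma adjusted p = 0.535). Myl6, the essential light chain of non-muscle myosin, was at 1129.6, 911 and 1074.8 FPKM in knockout libraries, against 970, 1069.8 and 951 FPKM in WT libraries (limma adjusted p = 0.907). Myl2, also on chromosome 5, was not tested because its mean was below 1 FPKM. It was at 2.19, 1.87 and 0.749 FPKM in knockout libraries and at 0 in all WT libraries, opposite in direction to Myl10. The 10 B lineage markers, which include genes of precursor B cells, summed to between 73.8 and 149 FPKM in knockout and between 67.8 and 84.5 FPKM in WT libraries, 6 of the 7 tested had a positive log2 difference, and none was called (limma, 2 at an unadjusted p under 0.05). Groups did not overlap for 2 of the 7 tested, Igll1 and Vpreb1, both higher in knockout libraries, against 15.8% of all genes tested. Cd79b was at 55.1, 54.3 and 39.3 FPKM in knockout libraries, against 52.1, 39.3 and 52.2 FPKM in WT libraries. Pax5 stayed at or below 0.521 FPKM in all 6 libraries. Rag1 was at 0.550, 0.124 and 0.0166 FPKM in knockout libraries and at 0 in all WT libraries. The part of B lineage cells in the Myl10 difference was not tested. Macrophage markers were lower in knockout libraries in 6 of 6 genes, with sums between 4.32 and 47.0 FPKM in knockout and between 21.8 and 121 FPKM in WT libraries, and C1qa, C1qb, C1qc and Fcna at 0 in knockout replicate 1. None of them was called (limma, 2 at an unadjusted p under 0.05), and their part in the Myl10 difference was not tested. The 6 skeletal muscle markers summed to between 5.58 and 10 FPKM in knockout and between 5.05 and 11.7 FPKM in WT libraries. The 2 tested went opposite ways. Tnni2, a fast troponin gene, was listed at 0 in all knockout libraries, against 1.33, 0.820 and 5.15 FPKM in WT libraries (limma adjusted p = 0.482). Mylpf, also a myosin light chain gene, was at 7.21, 9.69 and 5.05 FPKM in knockout libraries, against 4.47, 3.03 and 6.24 FPKM in WT libraries (limma adjusted p = 0.645). Acta1, Ckm, Tnnt3 and Myh4 had a mean below 1 FPKM.

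4933404O12Rik was read at 15.9, 26.4 and 18.1 FPKM in knockout libraries, against 6.41, 5.24 and 7.35 FPKM in WT libraries. The groups do not overlap, and knockout replicate 2 is again the highest. The means were 20.2 ± 5.53 FPKM in knockout and 6.33 ± 1.06 FPKM in WT libraries (SD, n = 3 each), a 3.18-fold difference. The log2 difference was 1.51, and 1.30 without knockout replicate 2.

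**Figure D1:**
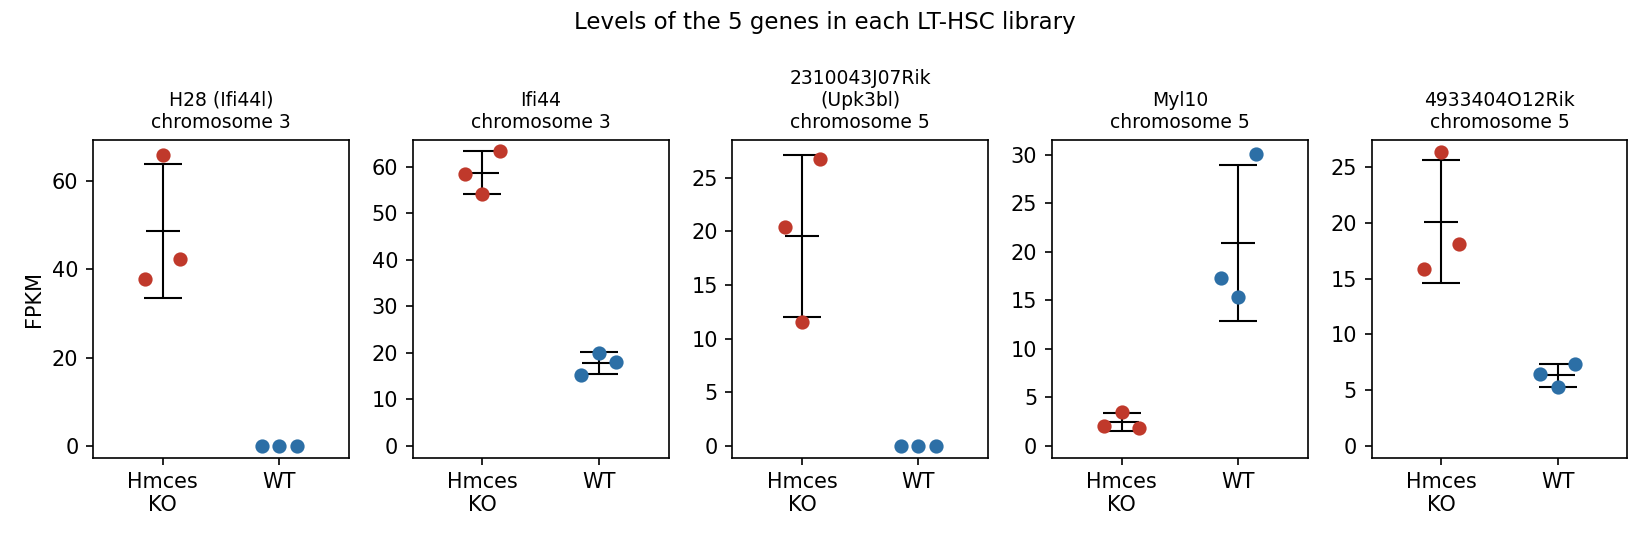
FPKM of each of the 5 genes in the 3 Hmces knockout (red) and 3 WT (blue) libraries, replicates 1 to 3 from left to right, with mean and SD as black lines where no library is at 0. Knockout points lie above WT points in 4 panels and below them for Myl10, and H28 and 2310043J07Rik lie at or near 0 in WT.

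All 5 members thus had groups that do not overlap, 4 higher and 1 lower in knockout libraries. The same held for 15.8% of the 11532 genes with a mean of at least 1 FPKM, which were the genes tested, with 7.47% higher and 8.34% lower. The limma fit of log2(FPKM + 1) with Benjamini-Hochberg adjustment over these genes had 13 below an adjusted p of 0.05 (0.113%, with 0.104% higher and 0.00867% lower), which are the genes said to be called. H28, Ifi44 and 2310043J07Rik were among the higher ones, Myl10 was the lower one, and 4933404O12Rik was not called. The choice of members fixes these counts, so nothing is read from them. A pattern of at most 0.1 FPKM in all libraries of a genotype and at least 5 FPKM in all libraries of the other was shown by 4 genes of the table. These were H28, 2310043J07Rik, Gbp1 (now Gbp2b) and Mir669g, all near 0 in WT, and 0 genes had it the other way round. The same 4 genes met a looser rule of at most 0.5 and at least 2 FPKM. Mir669g, a gene of a microRNA family with many similar copies and hence uncertain, was at 94.7, 80.6 and 24.2 FPKM in knockout libraries and at 0 in all WT libraries.

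**Figure D2:**
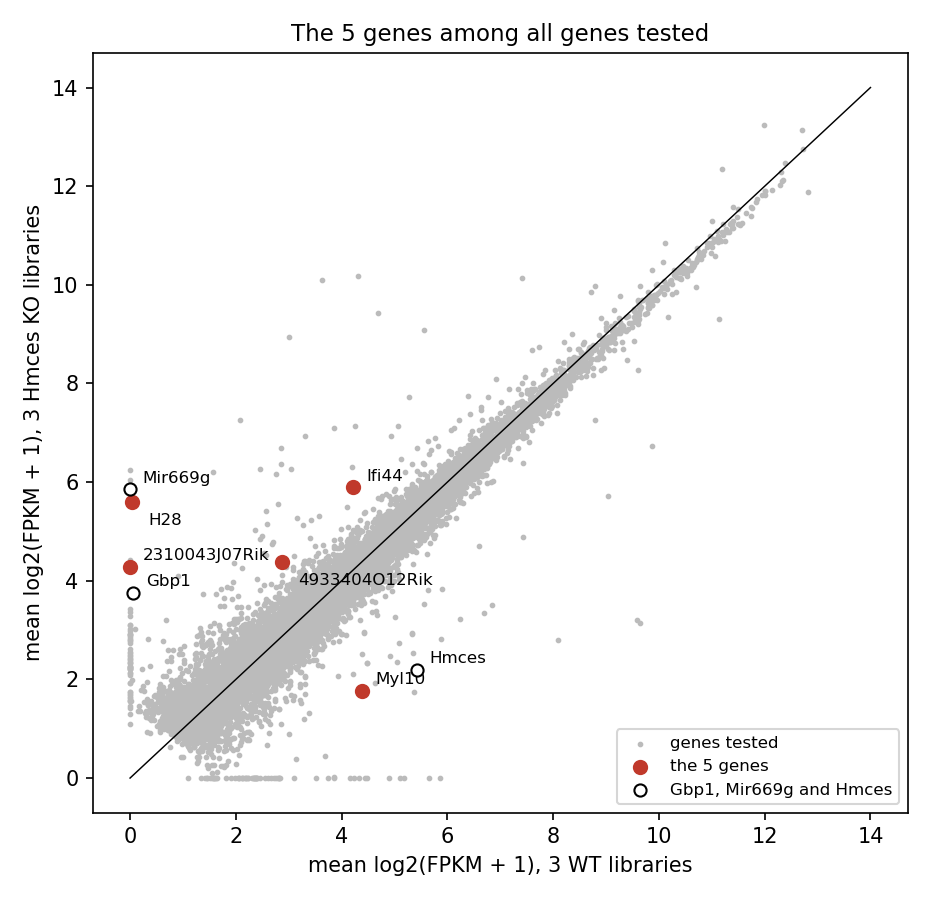
Mean log2(FPKM + 1) of every gene tested in the 3 Hmces knockout libraries (vertical axis) and the 3 WT libraries (horizontal axis), with the line of equal levels. H28 and 2310043J07Rik sit at the left edge with Gbp1 and Mir669g, at or near 0 in WT, and Myl10 lies below the line near Hmces.

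Whether genes around the members differed too was read from the 10 nearest tested genes on each side in RefSeq order. On chromosome 3 no gene lies between Ifi44 and H28. Of the 20 genes around the pair, 0 were called by limma (smallest adjusted p = 0.482), 4 had an unadjusted p under 0.05, against 9.16% of all genes tested, and 7 had groups that do not overlap, against 15.8% of all genes tested, with 5 higher and 2 lower in knockout libraries. Their median log2 difference was 0.11, against -0.01 over all genes tested. With 0.113% of all genes called, a count of 0 among 20 says little about them.

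The nearest tested gene before the pair was Eltd1 (now Adgrl4), an adhesion receptor gene, at 207, 250 and 258 FPKM in knockout libraries, against 197, 187 and 214 FPKM in WT libraries. Next to it Lphn2 (now Adgrl2), of the same receptor family, was at 3.08, 1.40 and 3.0 FPKM in knockout libraries, against 5.15, 5.24 and 5.65 FPKM in WT libraries (limma adjusted p = 0.491). Prkacb, which encodes a catalytic subunit of protein kinase A, was at 55.2, 61.3 and 57.7 FPKM in knockout libraries, against 61.5, 52.5 and 40.6 FPKM in WT libraries. The log2 differences of Eltd1, Lphn2 and Prkacb were 0.25, -0.9 and 0.19, and among them only the groups of Lphn2 did not overlap. Farther out, Mcoln3, an endolysosomal channel gene at the edge of the 10 genes on that side, was at 3.81, 2.54 and 2.70 FPKM in knockout libraries, against 1.57, 0.654 and 0.418 FPKM in WT libraries, a 3.43-fold difference of means that did not pass (log2 difference 1.13, limma adjusted p = 0.482).

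On the other side of the pair, Ptgfr and Gipc2 had a mean below 1 FPKM, and the first tested genes were Dnajb4, Fubp1 and Fam73a (now Miga1). Dnajb4, a co-chaperone gene, was at 14.1, 25.3 and 17 FPKM in knockout libraries, against 14.5, 20 and 23.2 FPKM in WT libraries. Fubp1, which encodes a DNA- and RNA-binding protein, was at 31.2, 35.1 and 29.1 FPKM in knockout libraries, against 35.7, 35.1 and 30.1 FPKM in WT libraries. Fam73a was at 4.09, 3.84 and 2.1 FPKM in knockout libraries, against 4.69, 5.41 and 4.44 FPKM in WT libraries (limma adjusted p = 0.696).

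The chromosome 5 members are not next to each other. Between 2310043J07Rik and Myl10 the table holds 9 genes, of which 8 were tested, and between Myl10 and 4933404O12Rik it holds Emid2 (now Col26a1), at 0 in all libraries, and Rabl5 (now Ift22). Of the 29 tested genes around and between them, 0 were called by limma (smallest adjusted p = 0.312), 4 had an unadjusted p under 0.05, against 9.16% of all genes tested, and 7 had groups that do not overlap, against 15.8%, with 2 higher and 5 lower in knockout libraries. Their median log2 difference was -0.18. With 0.113% of all genes called, a count of 0 among 29 says little about them.

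After 2310043J07Rik come Rasa4, a Ras GTPase-activating protein gene, and Polr2j, which encodes a subunit of RNA polymerase II. Rasa4 was at 12.4, 10.9 and 21.6 FPKM in knockout libraries, against 16, 19.4 and 14.1 FPKM in WT libraries (limma adjusted p = 0.869). Polr2j was at 200, 161 and 221 FPKM in knockout libraries, against 218, 250 and 201 FPKM in WT libraries (limma adjusted p = 0.703). Next in order, Lrwd1, Alkbh4, Orai2, Prkrip1, Sh2b2 and Cux1 had log2 differences between -0.78 (Orai2) and -0.04 (Cux1). Orai2, a calcium channel gene, was at 14.3, 15.5 and 8.58 FPKM in knockout libraries, against 17.8, 23.3 and 26.0 FPKM in WT libraries (limma adjusted p = 0.488).

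Rabl5, an intraflagellar transport gene that lies just before 4933404O12Rik, was at 26.3, 9.19 and 13.8 FPKM in knockout libraries, against 25.9, 33.6 and 33.1 FPKM in WT libraries. Its log2 difference of -0.98 ran opposite to that of 4933404O12Rik, its groups overlap, and it was not called (limma adjusted p = 0.490). After 4933404O12Rik come Fis1, Cldn15 and Znhit1. Fis1, a mitochondrial fission gene, was at 230, 255 and 217 FPKM in knockout libraries, against 271, 309 and 225 FPKM in WT libraries. Cldn15, which encodes a claudin of tight junctions, was at 5.40, 5.24 and 7.02 FPKM in knockout libraries, against 2.68, 0 and 0 FPKM in WT libraries. It had the largest difference among the 29 genes, 2.15 on the log2 scale (SE 0.54), and did not pass (limma adjusted p = 0.332). Znhit1 was at 60.7, 52.9 and 55.2 FPKM in knockout libraries, against 50, 49.4 and 41.3 FPKM in WT libraries. Before 2310043J07Rik, the nearest tested genes Dtx2, Ywhag and Mdh2 had log2 differences of -0.60, -0.07 and -0.23.

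**Figure D3:**
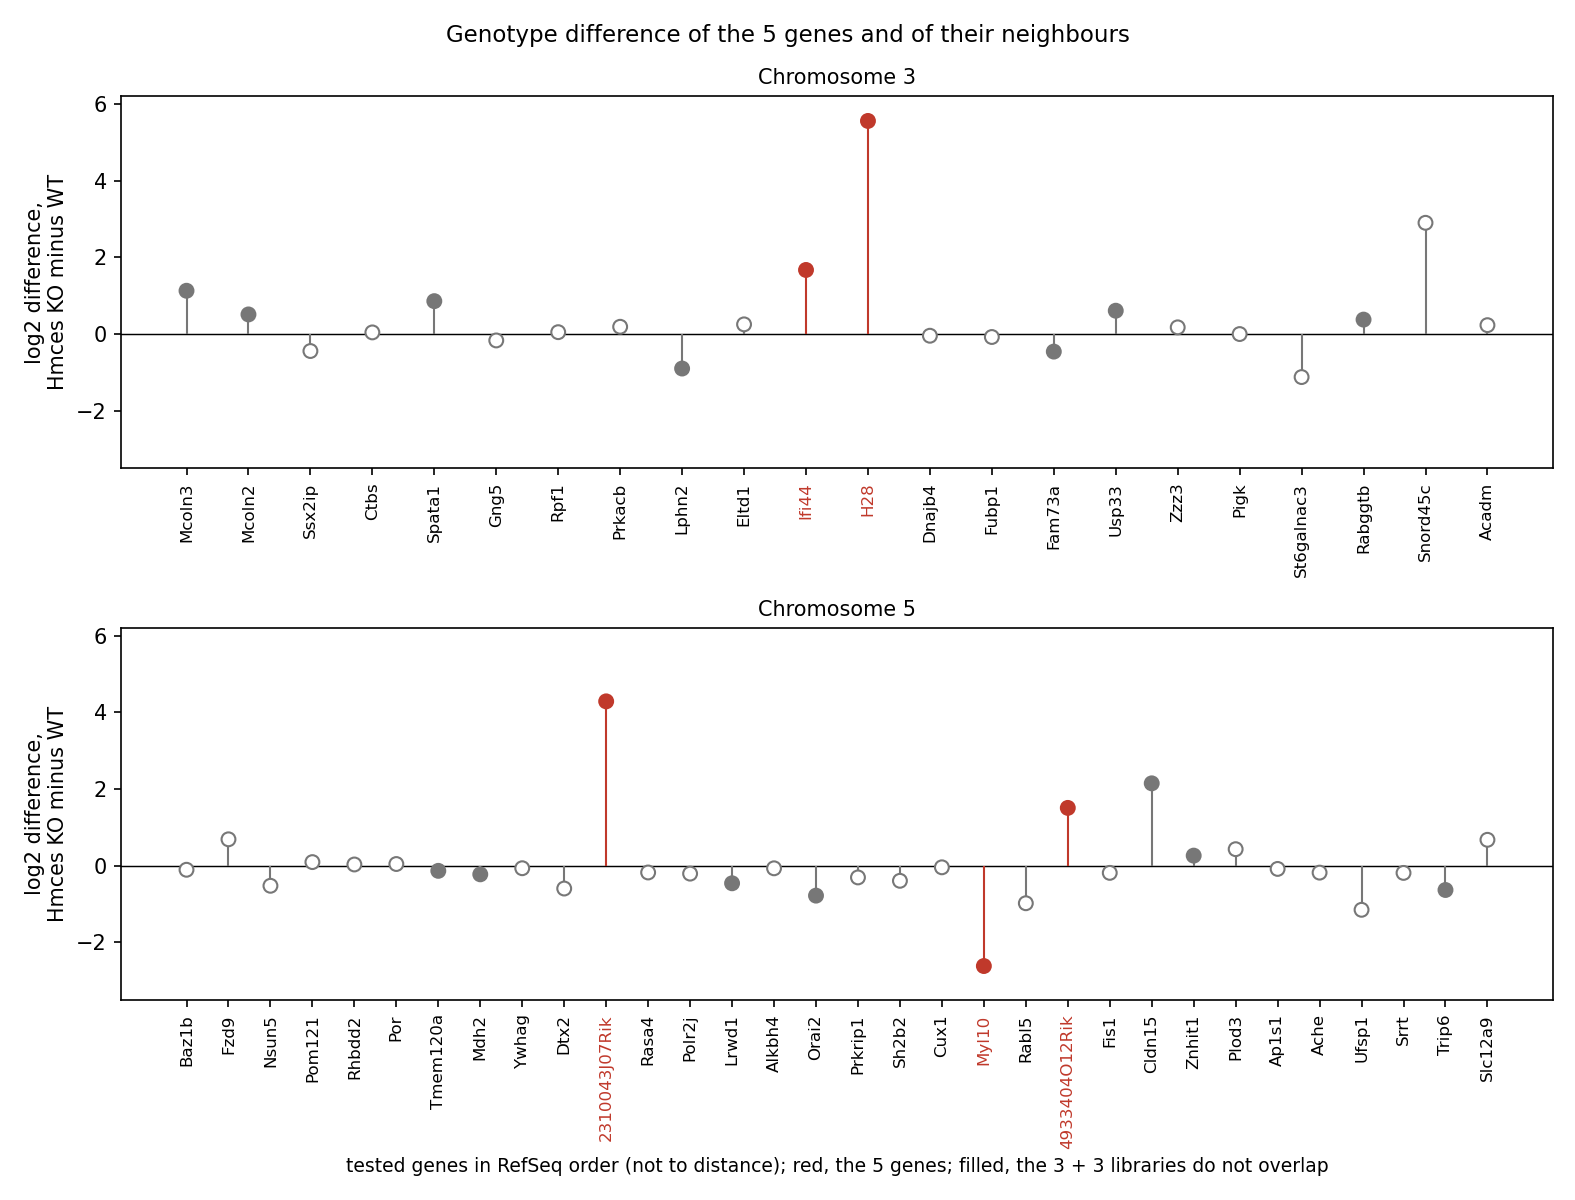
Log2 difference, Hmces knockout minus WT, of the tested genes around the members in RefSeq order on chromosomes 3 (top) and 5 (bottom), with members in red and filled points where the 3 libraries of each genotype do not overlap. Ifi44 and H28 are adjacent and both higher, and the chromosome 5 members are separated by genes with smaller differences. Snord45c, a small nucleolar RNA gene at 417 FPKM in knockout replicate 1 and listed at 0 in the other 5 libraries, gives the tall open point at the right of the top panel.

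Neighbouring genes with large differences were counted over the genome. Groups that do not overlap together with a log2 difference of at least 1.5 in size were found for 70 genes (0.607% of those tested). Among the 11439 tested genes that could be ordered, 2 pairs of such genes were next to each other. One pair was Ifi44 with H28. The other was Igll1 with Vpreb1 on chromosome 16, which encode the surrogate light chain of precursor B cells. Igll1 was at 22.6, 9.76 and 10.8 FPKM in knockout libraries, against 0, 8.43 and 4.53 FPKM in WT libraries, and Vpreb1 was at 13.9, 27.9 and 4.37 FPKM in knockout libraries, against 1.46, 1.61 and 3.48 FPKM in WT libraries. With a log2 difference of at least 1 there were 10 such pairs, and no chromosome 5 member was in any of them. The number of pairs that scattered genes would give was not worked out.

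Gbp1, a guanylate-binding protein gene whose inducibility by interferon is known to vary between inbred mouse strains, is also on chromosome 3. It was at 12.1, 13.6 and 11.9 FPKM in knockout libraries, against 0, 0.0580 and 0.0804 FPKM in WT libraries. The table holds 42 genes between Gbp1 and Ifi44, of which 23 were tested, 0 were called (limma, 3 at an unadjusted p under 0.05) and 7 (30.4%) had groups that do not overlap, against 15.8% of all genes tested. These 23 include the 10 tested genes before Ifi44 that were counted above, so the counts share genes. The 3 at an unadjusted p under 0.05, Mcoln3, Spata1 and Lphn2, are all among the shared genes. Of the 13 called genes, 4 were on chromosome 3 (Gbp1, Mgst2, Ifi44 and H28) and 3 on chromosome 5 (Anxa3, 2310043J07Rik and Myl10), which hold 4.70% and 6.30% of the genes tested. These chromosomes were looked at because the members lie there, and Ifi44, H28, 2310043J07Rik and Myl10 are members. Their choice thus favours these counts, and nothing is read from them. Neither chromosome carries Hmces. Of the 20 tested genes nearest to Hmces on chromosome 6, 0 were called by limma. At an unadjusted p under 0.05 were 3, all lower in knockout libraries, against 9.16% of all genes tested. Groups did not overlap for 6, with 1 higher and 5 lower, against 15.8%, and the median log2 difference was -0.14. With 0.113% of all genes called, counts of 0 in sets this small say little.

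H28 and Ifi44 were then set beside other genes of the type I interferon response. The list used holds Gbp2 and Gbp3 but not Gbp1, which was called. Of its 71 genes without the members, 67 were tested and 0 were called by limma. At an unadjusted p under 0.05 were 9, 8 higher and 1 lower in knockout libraries, and 10 had groups that do not overlap, 9 of them higher. Over all genes tested these shares were 9.16% and 15.8%, and 0.113% were called, so a count of 0 among 67 says little. Their median log2 difference was 0.13, with 44 of 67 positive. Over all genes tested the median was -0.01 and 48.1% were positive. Knockout libraries also held more of the granulocyte markers given above, and their part was not tested.

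The largest differences in that list were smaller than those of the members. D14Ertd668e (now Phf11d) was at 7.04, 5.77 and 3.80 FPKM in knockout libraries, against 1.24, 1.68 and 1.78 FPKM in WT libraries (log2 difference 1.32, limma adjusted p = 0.324). Rsad2, which encodes the antiviral enzyme viperin, was at 4.58, 0.696 and 3.68 FPKM in knockout libraries, against 4.56, 7.38 and 9.61 FPKM in WT libraries (log2 difference -1.16, limma adjusted p = 0.540). Oas2, which encodes an enzyme that senses double-stranded RNA, was at 9.63, 18.8 and 10.4 FPKM in knockout libraries, against 4.69, 6.86 and 6.90 FPKM in WT libraries (log2 difference 0.92, limma adjusted p = 0.486). H28, at 5.56, and Ifi44, at 1.67, lay above all 67 genes, a position that their choice favours. Gbp1, which is not in the list, had a log2 difference of 3.69, above that of Ifi44.

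**Figure D4:**
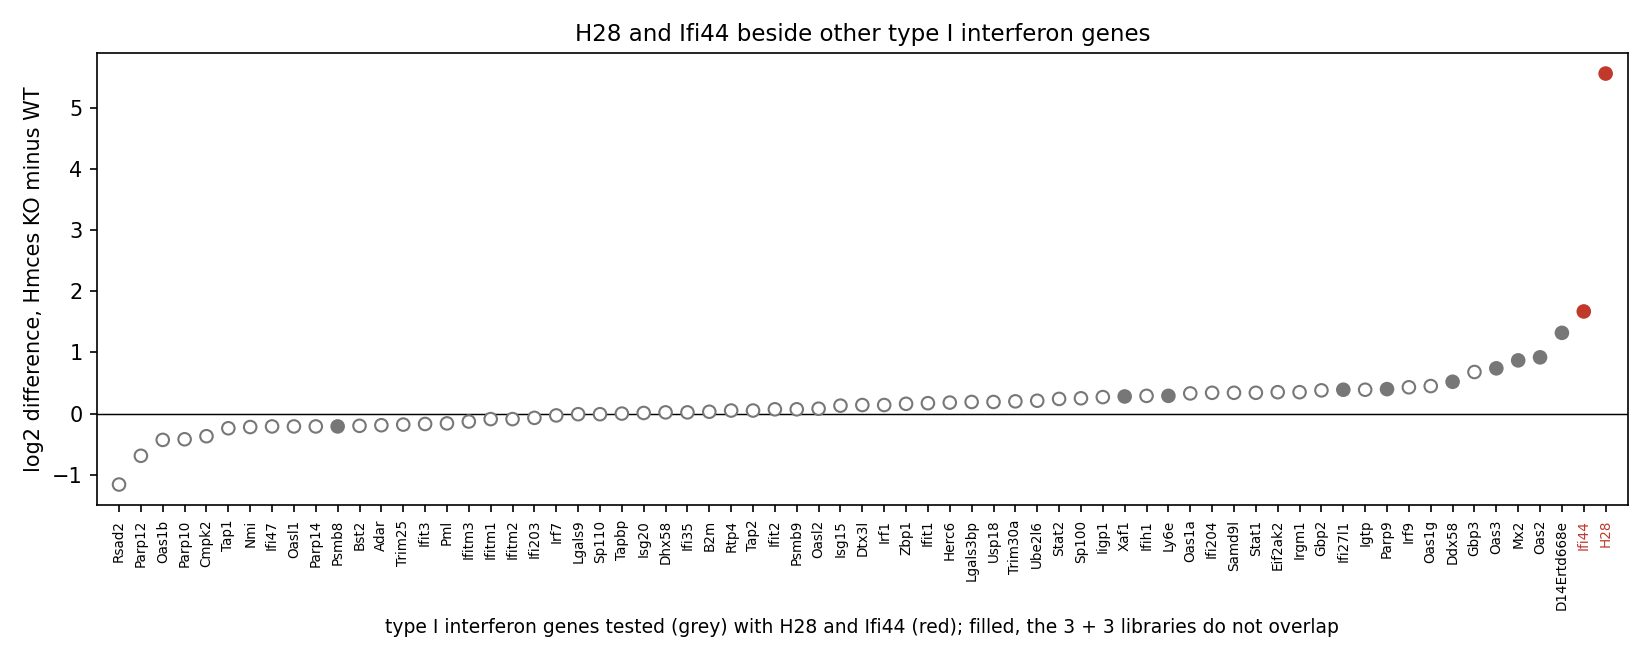
Log2 difference, Hmces knockout minus WT, of the 67 type I interferon genes tested (grey) and of H28 and Ifi44 (red), in rising order, filled where the 3 libraries of each genotype do not overlap. H28 at 5.56 and Ifi44 at 1.67 are the highest points, and D14Ertd668e follows at 1.32. Gbp1 is not in the list and is not shown.

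Across the 6 libraries the genes most like each member on log2(FPKM + 1) followed the genotype split, with Pearson r of at least 0.985, a description in which all points share the library and the genotype. Nearest to H28 were Gbp1 (r = 0.998), Lrrc14b (0.994) and Mtmr3 (0.992). Nearest to Ifi44 were Tmbim4 (0.995), 9130011E15Rik (now Armh3, 0.991) and Gm13139 (0.991). 9130011E15Rik and Gm13139 also came nearest to 2310043J07Rik (0.997 and 0.994), followed by 2410018L13Rik (0.992). Nearest to Myl10 were Wdr18 (0.992), Lrrc59 (0.987) and Ptma (0.985), all lower in knockout libraries by at most 0.73 on the log2 scale. Nearest to 4933404O12Rik were Cybb (0.994), a gene of the phagocyte oxidase, Spnb2 (0.989) and Clec4a2 (0.989), a lectin gene of myeloid cells. Among the members r was between 0.906 and 0.989 for those that were higher in knockout libraries, and between -0.977 and -0.853 with Myl10.

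In the GENCODE vM21 transcripts of the reference strain, 0 of the stretches of 50 bases in H28, Ifi44, 2310043J07Rik or Myl10 occurred in another gene, and 0.946% of those in 4933404O12Rik did. No member overlaps another annotated gene on either strand. The table holds no sequence variants, so alleles from another strain at these loci and a change in regulation with the loss of Hmces cannot be told apart.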

How the data were processed

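RNA was measured in 6 libraries of sorted LT-HSCs, 3 with an Hmces knockout and 3 wild type, and per the labels' protocols 500 pg of Smart-seq2 cDNA went into each library and was read as pairs of 150 bp. The authors deposited 1 table of FPKM per gene and library. Build mm9 and the tools TopHat2 2.1.1 and Cufflinks 2.2.1 are listed, per the submitters' processing notes, and neither annotation nor strand use is stated. A value of 0 may mean no reads or a failed estimate.

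Symbols were matched to RefSeq on GRCm38.p6 (20652 directly, 2341 by synonym, 242 not matched), which served for names and gene order. Genes with a mean of at least 1 FPKM were fitted as log2(FPKM + 1) with limma 3.58.1 in R 4.3.3 (mean-variance trend, genotype as the only term, two-sided, Benjamini-Hochberg over all genes tested), a procedure tested on simulated data. Every log2 difference is knockout minus WT on this scale, which understates changes of low genes. Depth was estimated from 1549 genes with a mean under 1 FPKM and 1 transcript, of over 1500 nt, in GENCODE vM21, assuming fragments of 200 nt. Such estimates cover counting error only, since the fragments carry no stated molecular identifiers.

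The members and lists were chosen with earlier results of these data known. Named beside the members are the 3 tested genes on each side of a region and all between its members, called flanking genes, the 3 genes most like each member by Pearson r, the 3 largest differences of the interferon list, genes near 0 in a genotype, Hmces and Gbp1. Cldn15, Mcoln3, Snord45c, Igll1, Vpreb1, Tnni2, Mylpf, Prg2, Myl12a, Myl6, Myl2, Cd79b, Rag1, Lyz2, Csf1r, S100a8 and S100a9 were chosen after their values were seen. Alternatives covered the pseudocount, low-value filters, scaling, variance model, small RNA genes, pairing and each library left out.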

Additional observations from a re-analysis of the deposited data

How the results depend on the processing

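Under all 15 alternative fits the 5 members kept the direction of their difference, with Ifi44 between 1.58 and 1.76, Myl10 between -3.01 and -2.34 and 4933404O12Rik between 1.30 and 1.65 on the log2 scale. With a pseudocount of 0.1 the difference was 8.65 for H28 and 7.54 for 2310043J07Rik, because genes at 0 depend on the pseudocount. Leaving out each library gave 5.33 to 5.72 for H28 and 4.04 to 4.61 for 2310043J07Rik. The number of genes called varied more. It was 3 with no filter, 6 without the variance trend, 20 with robust estimation and 32 without small RNA genes. It was between 2 and 19 when a library was left out, with 5 without knockout replicate 2, 2 without knockout replicate 3 and 7 without WT replicate 2. The cause was not tested. H28 was called in 15 of 15 alternatives, 2310043J07Rik in 11, Ifi44 in 7, Myl10 in 6 and 4933404O12Rik in 0. The members were chosen from these libraries for their differences, so nothing is read from these call counts. Since their groups do not overlap, leaving out a library could not reverse a direction. The counts of 0 called among the genes around the members, around Hmces (added after seeing the data) and in the interferon list held in every alternative run, including 20 genes on each side of the members. With 0.113% of all genes called in the main fit, counts of 0 in sets this small say little about them. Of neighbouring pairs with large differences there were 10 at a difference of at least 1.

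The labels give both genotypes replicate numbers 1 to 3 but do not say that a number marks a shared mouse or day. Deviations of same-numbered libraries from their group means correlated at 0.08, 0.01 and 0.04, so the numbers were not taken as pairs, and a replicate block gave 2 called genes. Depth limits what a value of 0 for H28 or 2310043J07Rik in WT shows, since it allows up to 3 fragments.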
